A study of Mus musculus with 2 samples.

Results

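Accessible sites within repeat sequence were distal DNase I hypersensitive peaks of the mouse hippocampus whose bases lay mostly in the masked, repeated part of the mm10 genome. A peak of replicate 1 was taken when it overlapped a peak of replicate 2, lay over 1000 bp from every transcription start site of GENCODE M21 and had 80% or more of its bases in lower case in the reference sequence. These criteria gave 502 sites, called repeat sites here, among 74414 distal peaks shared by both replicates and 144270 peaks of replicate 1 in all. The other 73912 distal shared peaks served for comparison. The series held 1 group of 2 pools, each made from 2 hippocampus biosamples of male B6CASTF1/J mice (a first-generation cross of C57BL/6J with CAST/EiJ) aged 8 to 10 months, with no treatment named. The tissue was labelled layer of hippocampus without saying which layer. The pools have 1 donor label in common, no source says whether they have animals in common, and the spread between them may be partly technical. There was no second condition, and no p-value is given. The mm10 reference is the C57BL/6J sequence, and the copies of each repeat carried by the CAST/EiJ parent were not analysed here.

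DNase I cuts DNA that is not wrapped in nucleosomes, and a cluster of cuts is called as a peak. Short protected stretches inside a peak are called as footprints and mark candidate places of protein binding. Much of the mouse genome consists of repeats, above all copies of mobile elements (short and long interspersed elements and elements with long terminal repeats) and of satellite arrays beside the centromeres. Most of these copies are held closed by DNA methylation and by repressive histone marks that KRAB zinc finger proteins, TRIM28 and SETDB1 place on them. Some mobile elements brought binding sites with them, and in rodents certain short interspersed elements are known for copies of the binding site of CTCF, the zinc finger protein that marks the borders of chromatin loops. Reads from a repeat can also be placed at a single locus only as far as the copies differ in sequence.

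Of the 5 tallest repeat sites that held the CTCF string under a footprint in both replicates, 4 are shown first. This string set the repeat sites apart from other distal peaks, and from masked windows away from peaks, more than any other string searched. The CTCF string is the factor's core consensus of 12 bases, of which 8 are fixed and 4 are free (the fixed ones open with CCA and end with GGC, around a central AG). Each sequence is the whole peak from mm10, read on the strand that spells the string as written (the minus strand in all 4), and the capitals mark the string.
chr7:139861541-139861720, intron of Adgra1: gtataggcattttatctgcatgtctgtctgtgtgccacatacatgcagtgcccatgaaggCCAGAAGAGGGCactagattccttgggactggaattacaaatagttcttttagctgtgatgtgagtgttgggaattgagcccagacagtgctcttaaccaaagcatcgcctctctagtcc
chr15:99469181-99469340, intergenic near Bcdin3d: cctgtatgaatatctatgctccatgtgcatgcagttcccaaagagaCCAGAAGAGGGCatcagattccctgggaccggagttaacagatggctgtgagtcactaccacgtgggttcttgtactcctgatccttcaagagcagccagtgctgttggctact
chr3:107918121-107918320, intergenic near Gstm7: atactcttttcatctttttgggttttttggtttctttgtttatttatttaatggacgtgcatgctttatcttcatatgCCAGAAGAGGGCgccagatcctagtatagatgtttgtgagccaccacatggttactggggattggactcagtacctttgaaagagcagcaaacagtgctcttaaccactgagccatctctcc
chr15:98710521-98710720, intron of Ccdc65: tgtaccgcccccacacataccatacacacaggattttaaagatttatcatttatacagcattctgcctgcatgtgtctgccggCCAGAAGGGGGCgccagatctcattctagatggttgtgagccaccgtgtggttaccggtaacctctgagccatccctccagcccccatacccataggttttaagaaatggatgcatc

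Of these 4 sites, 3 spelled the string CCAGAAGAGGGC and the site in Ccdc65 spelled it CCAGAAGGGGGC. The sites in Adgra1 and near Bcdin3d belonged to sequence group 2 below, and those near Gstm7 and in Ccdc65 to group 1.

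For contrast, 2 sites without the string are given on the plus strand, with no capitals. The first was the tallest of all 502 sites, lies at the centromere end of chromosome 9 and held no 31-base word that occurs only once in the genome. It overlaps Gm11168 and an annotated exon, which may be that of another gene at the same place. The second was the tallest of the third largest sequence group, whose 32 sites never held the CTCF string.
chr9:3006701-3006940, overlapping an exon of Gm11168: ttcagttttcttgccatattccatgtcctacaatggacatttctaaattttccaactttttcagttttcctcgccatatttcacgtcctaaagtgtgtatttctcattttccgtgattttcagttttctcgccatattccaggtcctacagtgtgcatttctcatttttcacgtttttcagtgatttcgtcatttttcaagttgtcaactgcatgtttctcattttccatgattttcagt
chr15:77269581-77269840, intron of Rbfox2: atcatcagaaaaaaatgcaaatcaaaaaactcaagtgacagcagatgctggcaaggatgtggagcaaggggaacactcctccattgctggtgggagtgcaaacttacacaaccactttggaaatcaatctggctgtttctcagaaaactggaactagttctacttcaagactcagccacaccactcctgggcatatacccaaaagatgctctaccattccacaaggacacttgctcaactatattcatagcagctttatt

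Repeat sequence was rare under distal peaks. Repeat sites made up 0.675% of the 74414 distal shared peaks of replicate 1, whereas 11.8% of the same windows moved by 10000 bp to either side were masked to 80% or more, a share 17.5-fold higher (log2 ratio of peaks to shifted windows -4.13). Taken from replicate 2's peaks instead, 551 of 74603 peaks (0.739%) met the same criteria against 12.1% of shifted windows (log2 ratio -4.04). The ratio was larger for windows masked in every base, with 158 peaks (0.212%) against 6.67% of shifted windows. At the other end, 86.1% of peaks and 52.3% of shifted windows had under 20% of their bases masked. The 56 distal shared peaks just below the threshold, with 78 to under 80% of bases masked, had median heights of 0.522 and 0.478 in the 2 replicates, and the 42 sites just above it, with 80 to under 82%, had 0.502 and 0.588.

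**Figure D1:**
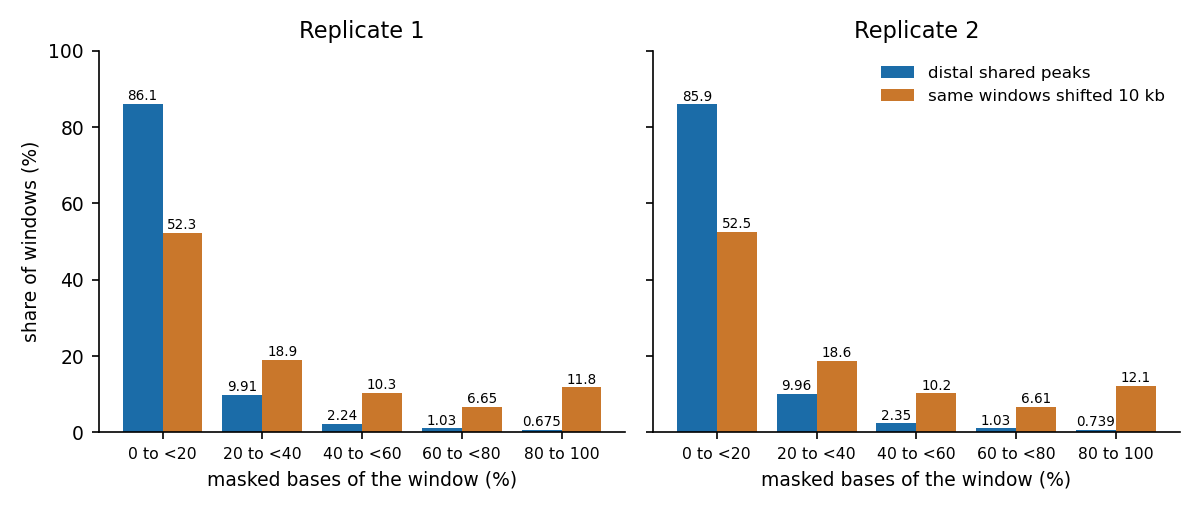
Share of distal shared peaks (blue) and of the same windows shifted by 10 kb to either side (orange) by the percentage of masked bases, for peaks of replicate 1 (left) and replicate 2 (right). In the last class, 80 to 100% masked, peaks stand at 0.675% and 0.739% and shifted windows at 11.8% and 12.1%.

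The shortage was present at every level of sequence uniqueness. Uniqueness was measured as the share of a window's 31-base words found once in the 21 chromosomes. Among windows whose words were all found once, 59 of 69153 peaks (0.0853%) and 0.501% of shifted windows were masked to 80% or more. Among windows with under 25% of words found once, the masked share was 31.6% of 301 peaks and 91.2% of 8182 shifted windows. Such repeated windows were themselves rarer among peaks, at 0.404% of peaks and 5.95% of shifted windows. How far reads with several possible placements were kept in the authors' alignments is not stated in any label or file, and its part in the shortage was not tested.

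Masked peaks were also called in 1 replicate alone more often than other distal peaks. Before the requirement of overlap, replicate 1 had 1393 distal peaks masked to 80% or more, of which 36.0% were shared, and 73912 of its 105634 other distal peaks were shared. In replicate 2, 46.7% of 1179 masked distal peaks and 83.7% of the others were shared. Sharing followed height. In the lowest of 5 equal height classes of replicate 1's distal peaks, 18.9% of 870 masked and 33.2% of other peaks were shared, and in the next to highest class 92.9% of 85 masked and 90.2% of other peaks were. In replicate 2 masked peaks were shared less often than other peaks in each of the 5 classes, from 28.7% against 56.1% in the lowest to 87.8% against 96.4% in the next to highest and 92.3% against 99.8% in the highest.

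Repeat sites were low. Peak height is the authors' own value, with no stated scale. Over the 502 sites it ran from 0.0525 to 5.03 with a median of 0.430 in replicate 1, and from 0.0710 to 7.39 with a median of 0.420 in replicate 2. The other distal peaks had medians of 0.748 and 0.652. Repeat sites had the lower median in both replicates and on all 21 chromosomes. The mean log2 ratio of the medians was -0.72 ± 0.12 (SD, n = 2 replicates). Heights above the median of all distal shared peaks in both replicates were found at 71 repeat sites (14.1%), against 44.1% of all distal shared peaks. Repeat sites were shorter too, with a median length of 160 bp against 200 bp, and among sites of 150 to 250 bp the log2 ratio of heights was -0.67. Among the 59 sites whose words were all found once it was -0.74.

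Heights of single sites kept their order between the replicates. Across the 502 sites Spearman's rho between replicates was 0.867, given as a description because the sites share 2 libraries. It was 0.925 across the other distal peaks. Replicate 2 was higher at 254 repeat sites (50.6%), with a median log2 ratio of replicate 2 to replicate 1 of 0.01, whereas it was higher at 25097 of the 73912 other distal peaks, with a median of -0.15.

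**Figure D2:**
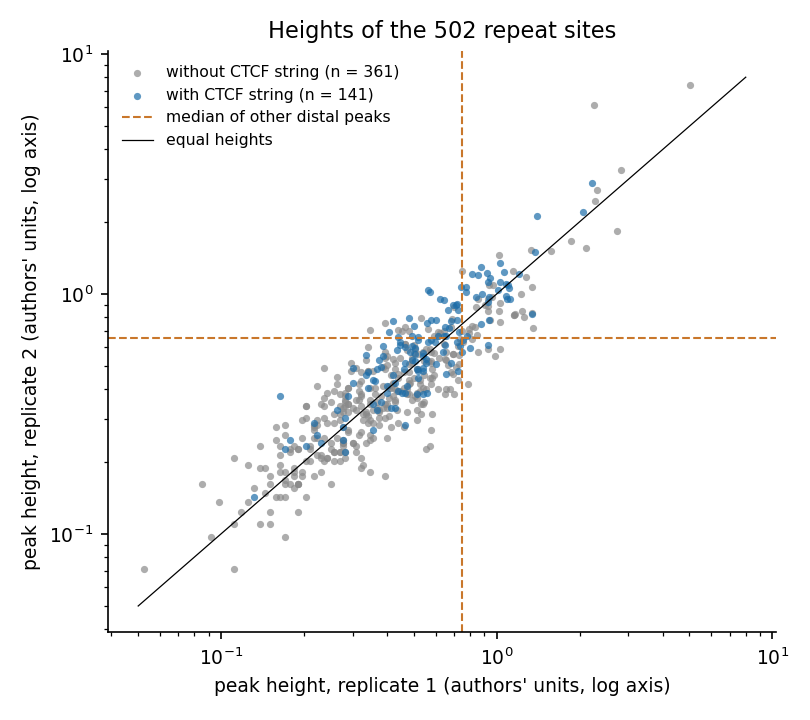
Peak height of each of the 502 repeat sites in replicate 1 (horizontal, log axis) and replicate 2 (vertical, log axis), in the authors' units, with sites that hold the CTCF string in blue. Dashed lines mark the medians of the other distal peaks, 0.748 and 0.652, and most points lie below both.

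The tallest sites were of several kinds. The 2 tallest, both in chr9:3002001-3006940, were chr9:3006701-3006940 with heights of 5.03 and 7.39 and chr9:3002001-3002220 with 2.26 and 6.14. They overlap Gm11168 and Gm10722, predicted genes at the centromere end of that chromosome, and annotated exons that may belong to these or to other genes there. In the first, 60.4% of letters equalled the letter 58 bases on, and neither site held a word found once. The gap between replicates at the second was wider than at the others of the 10 tallest sites. Next came chr18:3004841-3004980, another site beside a centromere end, with heights of 2.82 and 3.29.

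Of the 10 tallest sites, 3 were found at 1 copy only, counting as copies the loci that the search found with at least 80% identity over 80% of the site. The site in Adgra1, which codes for an adhesion G protein-coupled receptor, had heights of 2.21 and 2.91. The site near Bcdin3d, an RNA methyltransferase gene, had heights of 2.05 and 2.20. The third was chr5:125394281-125394480 near Gm10382, with heights of 2.10 and 1.56 and no CTCF string. By contrast, chr14:93214881-93215140 in an intron of Pcdh9, a protocadherin gene of neurons, had heights of 2.31 and 2.70 at a sequence with 4265 copies, of which 3 lay under a shared peak. Likewise chr10:99339341-99339580, in an intron of a noncoding gene with Dusp6 as the nearest coding gene, had heights of 2.27 and 2.43, 1491 copies and 6 of them under a shared peak. In the remaining sites of the 10, heights were 2.74 and 1.83 at chr18:6419721-6419960 and 1.86 and 1.66 at chr6:142515121-142515220, 7164 bp from Ldhb, a lactate dehydrogenase gene.

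Most copies of these sequences lay under no peak shared by both replicates. A copy under such a peak is called open here, and the lack of a peak does not show that a copy was closed. A site had a median of 369.5 copies, and the range ran from 1 copy (91 sites) to 132356, with 193 sites at 1000 copies or more. The search began from exact short matches and may miss diverged copies, and a site without any hit was set at 1 copy. Some sites with 1 copy held few words found once, as chr7:33982381-33982580 did (28.2%). For the 302 sites with at least 100 copies, a median of 0.213% of the copies lay under a peak shared by both replicates, and at 43 of them the site itself was the only open copy. Height was lower where copies were many. Sites with 1 copy had median heights of 0.551 and 0.607, and sites with 1000 copies or more had 0.368 and 0.375. The share of words found once fell along with it, from a median of 97.2% to 47.4%. Only 59 repeat sites (11.8%) had all their words found once, against 92.9% of all distal shared peaks, and 46 had none. Among shifted masked windows 2.92% had all words found once. Fewer accessible copies and fewer reads placed at a copy cannot be told apart here.

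Footprints were less frequent in repeat sites than in other distal peaks. A footprint lay in 72.1% of repeat sites in replicate 1 and 71.5% in replicate 2, against 88.2% and 85.9% of the other distal peaks, a mean difference of -15.2 ± 1.19 percentage points (SD, n = 2). Footprints in both replicates were present at 295 repeat sites (58.8%), against 79.3% of all distal shared peaks, and 76 repeat sites (15.1%) had none in either replicate, against 5.41%. This went with height. In the lowest of 4 equal height classes of all distal shared peaks, which held 56.2% of the repeat sites in replicate 1, 53.5% of repeat sites and 63.6% of other peaks had a footprint. In the second class the shares were 94.9% and 91.8%, and in the third 98.4% of 62 repeat sites and 17984 of 18541 other peaks. In replicate 2 they were 52.3% and 58.9% in the lowest class, 85.8% and 87.7% in the second and 97.6% and 96.2% in the third. Among peaks on the authors' shorter lists of both replicates, the difference was -2.71 points. The longest footprint of a site had a median length of 13 bp, against 14 bp in other peaks. Footprints covered 11.4% of the bases of all repeat sites in replicate 1, against 13.5% in other peaks, and a lower share than in other peaks in replicate 2 as well. Within each of the 4 height classes the covered share was higher in repeat sites in both replicates, for example 6.04% against 5.39% in the lowest and 24.6% against 22.8% in the highest class of replicate 1. Yet the number of footprints per site was lower in repeat sites in each class of both replicates. In replicate 1 it was 0.887 against 1.08 in the lowest and 2.91 against 3.46 in the highest class. Repeat sites were also shorter, as given above.

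**Figure D3:**
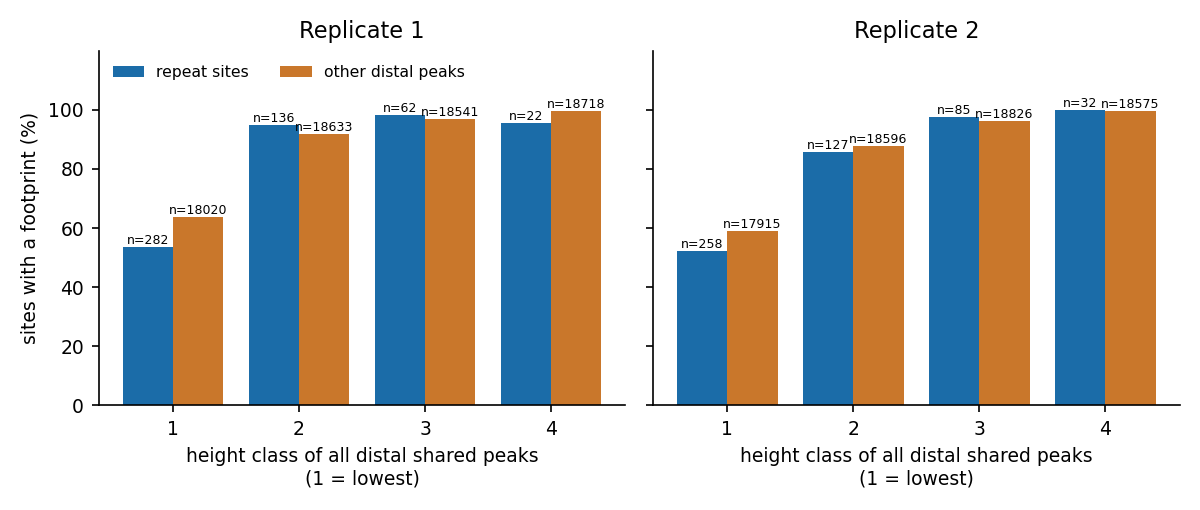
Percentage of sites with at least 1 footprint, by height class over all distal shared peaks (1 is the lowest), for repeat sites (blue) and other distal peaks (orange) in replicates 1 and 2, with the number of sites above each bar. In the lowest class repeat sites stand at 53.5% and 52.3% and other peaks at 63.6% and 58.9%, and from the second class up both sets are above 85%.

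The site with the most footprint bases was the tallest one, chr9:3006701-3006940, with 133 bases of its 240 under footprints in replicate 1 and 139 in replicate 2. Its neighbour at chr9:3002001-3002220 had 103 and 119. Neither of these sites held a word found once, and how far reads of other copies were placed at them was not tested. After these came chr4:67208541-67208680, 278257 bp from Tlr4, with 98 and 96 of 140 bases. It is a tandem repeat with a period of 10 bases, and its heights were 0.689 and 0.788. In all, 5 of the 502 sites had at least 80% of letters equal to the letter 1 period on, at some period up to 60 bases. Also among the 5 sites with most footprint bases was chr7:39655341-39655560, an intergenic site 114921 bp from Zfp619 with 78 and 65 of 220 bases under footprints.

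Strings of known binding sites were counted in 200 bp at each site's centre, on either strand. The CTCF string was present in 141 repeat sites (28.1%), against 10.8% of all distal shared peaks. It was in 10.7% of the other distal peaks, in 3.01% of 16178 shifted windows that were masked and off peaks, and in 0.997% of 117113 less masked shifted windows off peaks. By replicate 2's peaks the share was 27.2%. The 59 sites with all words found once stood 32.1 points above other distal peaks whose words were all found once, compared with 17.4 points over all repeat sites. The difference was smaller under other choices, at 6.96 points over all masked distal peaks of replicate 1 and 10.1 over those of replicate 2, shared or not, 7.59 for sites with all bases masked and 8.82 with a stricter string of 14 bases.

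**Figure D4:**
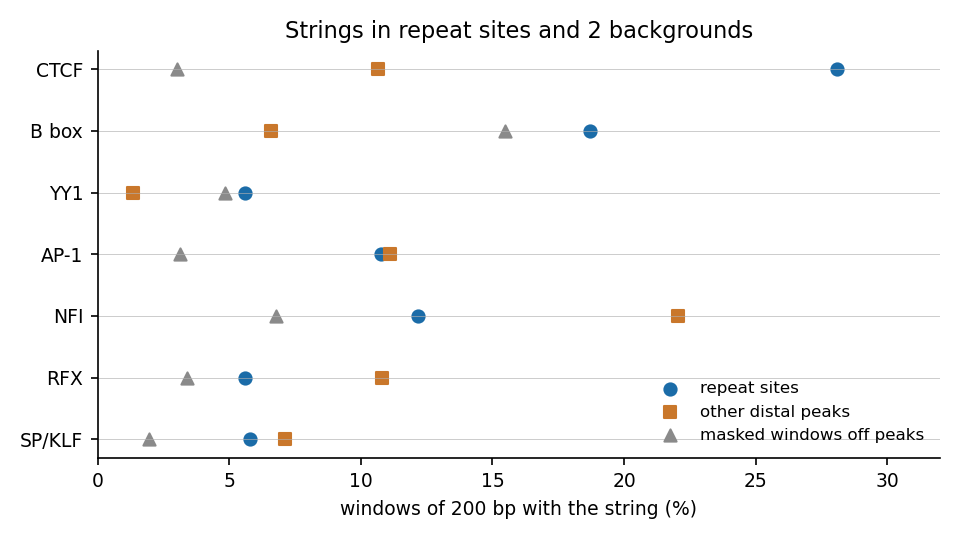
Percentage of 200 bp windows that hold a string of the named binding site, for the 502 repeat sites (circles), other distal peaks (squares) and masked windows off peaks (triangles). The CTCF string stands at 28.1% in repeat sites, 10.7% in other distal peaks and 3.01% in masked windows off peaks.

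Other strings fell into different patterns. CAGATG, read by bHLH factors such as NEUROD, was in 41.6% of repeat sites, 31.7% of other distal peaks and 17.8% of masked windows off peaks. The AP-1 string TGANTCA, read by FOS and JUN dimers, stood at 10.8% in repeat sites, 11.1% in other distal peaks and 3.12% in masked windows. The NFI string TTGGCA was less frequent in repeat sites, at 12.2% against 22.0% of other distal peaks, and at 6.76% in masked windows. The YY1 string AAGATGGC, at 5.58%, was near the 4.83% of masked windows and above the 1.33% of other distal peaks. The B box string GTTCNANNC, part of the internal promoter of tRNA genes and of short interspersed elements derived from them, stood at 18.7%, against 15.5% of masked windows and 6.60% of other distal peaks. The CRE string TGACGTCA, the MEF2 string and the direct repeat of nuclear receptors were in 0 of 502 sites, and were in under 1% of other distal peaks.

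Repeat sites with the CTCF string were taller. Their median heights were 0.538 and 0.607, against 0.381 and 0.375 for the 361 sites without it, and both sets overlapped widely. The same was true of other distal peaks, with medians of 1.14 and 1.17 with the string and 0.722 and 0.626 without it. A footprint lay in 87.9% and 88.7% of repeat sites with the string and in 65.9% and 64.8% of those without. In other distal peaks the shares were 95.7% and 95.6% with the string and 87.3% and 84.8% without. Of 142 matches in repeat sites, a footprint covered 71.8% in replicate 1 and 77.5% in replicate 2, and 92 in both. The shares of matches covered in other distal peaks were 85.5% and 85.8%. Within height classes the covered share was mostly higher in repeat sites. In replicate 1 it was 43.1% against 36.1% in the lowest class and 85.7% of 56 matches against 81.5% in the second. In replicate 2 it was 54.9% against 48.9% and 87.5% against 78.3%. In the third class replicate 1 went the other way, with 27 of 30 matches against 1800 of 1936. The highest class held only 5 matches in repeat sites. Repeat sites with the string also had fewer copies, with a median of 37 against 526. They lay nearer to a start site, with a median of 5688 bp against 14078 bp, as did other distal peaks with the string (10386 bp against 14838 bp).

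A single spelling prevailed. CCAGAAGAGGGC made up 91 of the 142 matches in repeat sites (64.1%), against 493 of 8004 in other distal peaks (6.16%). In the genome, over 1000 bp from start sites, masked surroundings held 53520 CTCF strings, and 36833 of them had this spelling. It was thus the main spelling of masked sequence as a whole and not of repeat sites alone. Of these 36833 copies, 93 (0.252%) lay under a shared peak, as did 54 of 16687 masked strings with other spellings (0.324%). In less masked surroundings 502 of 10276 copies (4.89%) did.

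Open masked copies of CCAGAAGAGGGC differed from those off peaks in the letters beside the string. Positions are counted from 1 at the first base of the string, and -1 is the base before it. At position -1, G was present in 62.4% of the 93 open copies, in 9.91% of 36654 masked copies off peaks and in 70.5% of the 502 open copies in less masked sequence. At position -2, G was present in 51.6% of open copies and in 6.70% of masked copies off peaks. These letters went with uniqueness: in the 1512 masked copies off peaks with at least 90% of their surrounding words found once, G stood at 70.2% and 64.0% of copies at the same positions, above the open copies. Over the 30 bases beside the string, open copies differed from the commonest letters in a median of 15, all copies off peaks in a median of 4 and the 1512 copies off peaks in mostly unique surroundings in a median of 17. Of masked copies with G at both positions, 38 of 1866 (2.04%) lay under a shared peak. With G at 1 of them it was 30 of 2530 (1.19%), and with G at neither, 25 of 32437 (0.0771%). Copies with G at both also had more words found once in the surrounding 200 bp, a median of 85.9% against 36.5%. Among the 1576 copies with at least 90% of words found once, 23 of 778 (2.96%) with G at both were open. The share was close to this with G at 1 of the 2, at 15 of 572 (2.62%). With G at neither it was 0 of 226, which allows a share of up to 1.33% by counting error alone. The 2 positions were chosen after the letters had been seen.

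The sites fell into families of related sequence. Grouping at 70% identity over 70% of the shorter site gave 53 groups with 369 sites and left 133 sites alone, and 10 groups had 8 sites or more. No repeat annotation was used here, so the groups carry numbers only. Group 1 held 81 sites, 55 of them with the CTCF string, with median heights of 0.564 and 0.542. A search with its leading member found 66892 copies in the genome, of which 86 (0.129%) lay under a shared peak. Group 2 held 43 sites, 36 with the string, with median heights of 0.538 and 0.607, and its leading member had 523 copies, 20 of them open (3.82%). Group 3, with the site in Rbfox2 shown above, held 32 sites, none with the string, with median heights of 0.279 and 0.281 and 57693 copies, 36 open (0.0624%). Rbfox2 codes for a splicing factor of neurons, and its site had heights of 1.02 and 0.762. The next tallest of the group was chr9:83231341-83231560, 84656 bp from Hmgn3, a nucleosome-binding protein gene, with heights of 0.623 and 0.684.

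**Figure D5:**
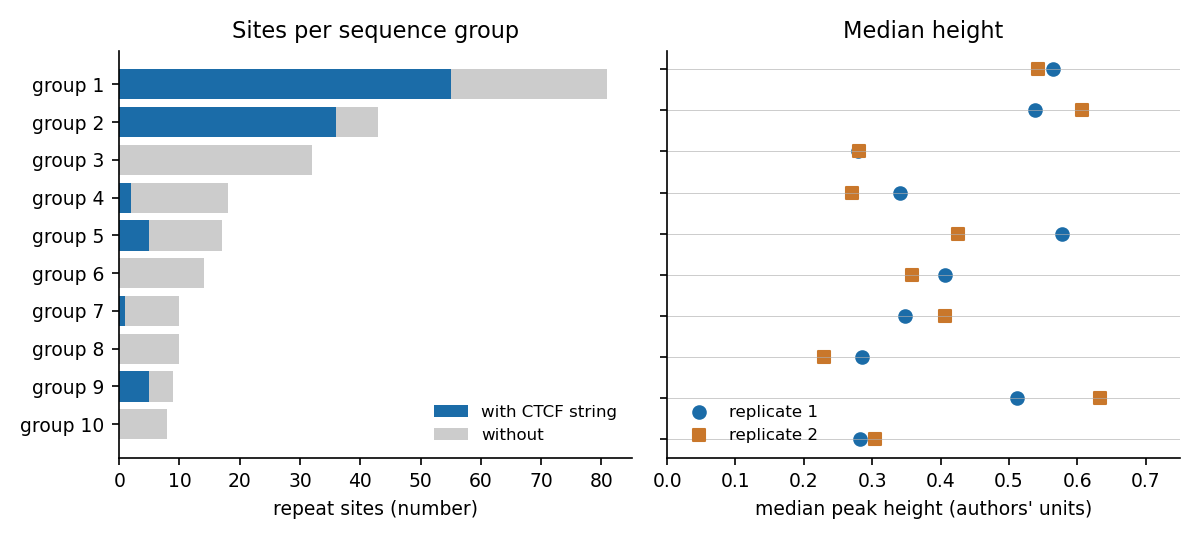
Left, number of repeat sites in each of the 10 largest sequence groups, with the CTCF string (blue) or without it (grey). Right, median peak height of each group in replicate 1 (circles) and replicate 2 (squares); groups 1, 2 and 9, in which most sites hold the string, lie above 0.5 in both replicates.

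Copies with and without the string, counted in the copy or within 50 bp of it, were compared for the leading members of groups 1 to 9. Among the copies of group 2's leading member, 18 of 307 with the string (5.86%) were open and 2 of 216 without it (0.926%). In group 9, whose leading member had 47 copies, 7 of 37 with the string (18.9%) were open and 0 of 10 without it, a count that allows a share of up to 30% and so shows no difference. In group 1 the shares were 0.141% of 34683 copies with the string and 0.115% of 32209 without. Groups 5 and 6 had 1 open copy with the string each, 1 of 40 and 1 of 27, against 0.458% and 1.10% of copies without it. In groups 3, 4, 7 and 8, 0 of 137, 0 of 153, 0 of 203 and 0 of 1 copies with the string were open. Copies without it in these groups were open at 0.0625%, 0.224%, 0.0947% and 1.84%, so the counts are too small to show a difference.

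The remaining large groups mostly lacked the string. Group 4 had it in 2 of 18 sites, with median heights of 0.341 and 0.271. Its tallest site, chr4:82360297-82360547, lay in an intron of Nfib, a nuclear factor I gene, with heights of 0.748 and 0.697. The next was chr1:47130161-47130380, 237309 bp from Slc39a10, a zinc transporter gene, with heights of 0.728 and 0.510. Group 5 had the string in 5 of 17 sites. Its 2 tallest, chr6:115847121-115847280 in an intron of Mbd4, a DNA repair glycosylase gene, and chr15:78355101-78355260 near Csf2rb, a cytokine receptor gene, both held it, with heights of 1.08 and 1.10 at the first and 1.10 and 1.08 at the second. Group 8 had B box strings in 8 of 10 sites and low heights of 0.285 and 0.229.

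In all, 4 sites held a word that matched, with at most 1 mismatch, the complement of a tRNA's 3' end, the kind of sequence at which retroelements with long terminal repeats begin copying. They were 0.797% of repeat sites, against 0.185% of 3236 masked windows off peaks and 0 of 3696 other distal peaks. Of these, 3 held TGGTGCCGAAACCCGGGA, the complement of an end found in genes labelled tRNA-Phe and tRNA-Ser. The tallest of the 4 was chr11:58518961-58519160, 8026 bp from Olfr330, with a mean height of 1.54 over the replicates. In the other 3, heights lay between 0.138 and 0.349. No repeat site lay on a tRNA gene, a count of 0 of 502 that allows a share of up to 0.598%, and 169 other distal peaks (0.229%) did.

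Repeat sites were more often intergenic than other distal peaks. Outside all genes lay 298 sites (59.4%), against 45.0% of all distal shared peaks, and 60.6% of the shifted masked windows lay there too. Introns held 192 sites (38.2%) and exons 12 (2.39%, of which 8 held the CTCF string), against 47.4% and 7.74% of the other distal peaks and 38.4% and 0.925% of the shifted masked windows. The median distance to a start site was 10966 bp, against 14208 bp for other distal peaks and 18794 bp for shifted masked windows. Within 5000 bp of a start site were 28.9%, 23.3% and 15.6% of the 3 sets. Repeat sites lay more alone, with a median of 11962 bp to the next distal peak against 6785 bp (every 20th of the other distal peaks).

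Chromosomes X and Y stood out by share. The X held 23 repeat sites of 1750 distal shared peaks (1.31%) and the Y 11 of 31 (35.5%), while the autosomes lay between 0.317% (chromosome 12) and 0.884% (chromosome 14). Per megabase, the X (0.134) and Y (0.120) were within the range of the autosomes, from 0.0916 to 0.246. Median heights were 0.276 and 0.232 on the X and 0.223 and 0.368 on the Y. On the autosomes they ran from 0.285 (chromosome 14) to 0.643 (chromosome 19) in replicate 1. In replicate 2 they ran from 0.236 (chromosome 13) to 0.665 (chromosome 19). The mice were male, so the X and the Y were present in 1 copy, and whether this bears on their heights was not tested.

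Repeat sites under 10000 bp apart formed 9 chains with 21 sites, a count that was not made for other distal peaks. The largest, chr4:143985241-143988420, held 4 sites between 2699 and 5639 bp from Pramef17, a member of a gene family in tandem copies, with heights from 0.413 to 1.33 in replicate 1 and from 0.458 to 1.52 in replicate 2. Inside coding genes lay 170 sites, in 169 genes. Anks1b, a scaffold protein gene of synapses, was the gene with 2 of them, with median heights of 0.686 and 0.804.

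The tissue label was checked on promoters, meaning a peak in both replicates within 1000 bp of a coding start site. Such a peak was present at 63.2% of all 21864 coding genes. All 6 excitatory neuron markers and all 5 markers of CA1 to CA3 pyramidal cells had one, as did 3 of 4 dentate granule cell markers (not Dsp), 3 of 6 inhibitory neuron markers (not Slc32a1, Sst or Vip), 1 of 2 markers of oligodendrocyte precursors, 5 of 6 astrocyte and 5 of 6 oligodendrocyte markers, 1 of 4 each for microglia and for endothelial and mural cells, 2 of 3 for choroid plexus and ependyma, and 0 of 6 for other organs. No repeat site lay inside a gene of these lists. Of 18 genes known for silencing repeats, Trim28, Setdb1 and Dnmt1 among them, all 18 had an open promoter, and 1 repeat site lay inside a gene of that list. Repeat sites lay in 169 of all 21864 coding genes, so lists this short cannot show an excess or a shortage of them. In bulk tissue, a site open in few cells and a site weakly open in many cannot be told apart.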

How the data were processed

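DNase-seq was analysed in 2 hippocampus pools (replicates 1 and 2). Per the labels the assembly was mm10. No label or file names the aligner, the callers of peaks and footprints or the handling of reads with several placements. The authors deposited, per sample, peaks with a height (unit: signal, scale not stated) and footprints as positions with another column, the constant 0.01, which was not used. The longer peak list of each sample was used (144270 and 124426 peaks; footprints 348892 and 327771). Read totals are not given in these files, so the depth is unknown and no counting interval is given for heights. The upper limits beside counts of 0 treat sites or copies as independent and do not cover the spread between animals.

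Masking was read from the lower-case bases of a RefSeq GRCm38.p6 copy (36.4% of bases); no source states how that lower case was made, and it may differ from other mm10 masks. An overlap of 1 bp counted as shared, and the height in the other replicate was that of the peak with the largest overlap. Word copies were counted exactly on both strands. Copies and groups were found with blastn 2.17.0, each group being the site with most matches among those not yet grouped, its leading member, with all of its matches. Tables were made in Python 3.11.15 (pandas 2.3.3, numpy 2.4.6, numba 0.67.0) and figures with matplotlib 3.10.9. The functions were tested on simulated data, with 11 of 11 checks recovered.

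Named sites were the 10 tallest by mean height, the 5 with most footprint bases, the tallest 2 in each of the 5 largest groups and the 5 tallest with the CTCF string under a footprint in both replicates. A further class, sites in the marker genes, was empty. A site taken by this rule is not reported here. The members and lists were chosen with earlier results of these data known. The B box, the tRNA-end words and the letters beside the CTCF string were added after the data had been seen. Alternatives covered masking, peak list, overlap, distance, replicate, uniqueness, shift, string, footprint and length. With 1 group of 2 samples no test was run.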

Additional observations from a re-analysis of the deposited data

How the results depend on the processing

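Every direction held under each alternative run, but sizes moved by more than the spread between replicates in many. With all bases masked, the number of sites was 158, the log2 share over shifted windows -4.97, the log2 height ratio -0.85, and the differences in percentage points from other distal peaks were -21.8 (footprints), 16.4 (intergenic), 7.59 (CTCF string) and -88.1 (all words once); with 60% or more masked they were, in that order, 1269, -3.44, -0.48, -8.97, 7.37, 20.5 and -70.9. On the shorter lists (peaks that overlap them in both replicates) they were 146, -5.01, -2.71 (footprints), 12.8 (intergenic) and -88.0 (words). With an overlap of 50% of each peak the share was -4.24, footprints -13.6, the CTCF string 19.5 and words -84.8. Over 5000 bp from start sites these were -4.36, -19.1, 11.1 and -84.1, with intergenic 12.9. By replicate 2's peaks the share was -4.04, intergenic 12.5, the CTCF string 16.6 and words -80.8. With single-copy sites only there were 59 sites, a share of -2.55, footprints -19.3, intergenic 8.15 and the CTCF string 32.1. Without the requirement of sharing, thus without replicate 2 or without replicate 1, the number of sites was 1179 to 1393, the share -3.28 to -3.27, the height ratio -1.17 to -1.02, footprints -34.3 to -30.3, intergenic 14.9 to 16.6, the CTCF string 6.96 to 10.1 and words -81.0 to -80.1. Shifts of 2000 and 100000 bp gave shares of -3.62 and -4.21, a 100 bp window and a stricter string of 14 bases gave CTCF differences of 16.4 and 8.82, and 24-base words gave -83.2. Added after seeing the data, leaving out chromosomes X and Y gave a CTCF difference of 18.3, and leaving out the 2 sites on chromosome 9 changed no direction. No paired analysis was possible because the series holds 1 group. The depth is unknown, and 2 pools of 1 group limit every statement to these samples.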
